A study of Homo sapiens with 18 samples.

Results

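Clones 17H5 and 8G12 of HCT116, an established human colorectal carcinoma line, carry the same labelled genotype, IDH2 R140Q/+, and were compared with each other on the 2 expression arrays of each, 4 arrays of the 18 in the series. The arrays were chosen by clone name. Earlier results of these data were known when the comparison, gene lists and tests were chosen. The series holds 9 isogenic clones with 2 biological replicates each, grown for 6 days without treatment: the parental cells, wild-type; 2C11 and 2H1, IDH1 R132H/+; 3A4, IDH1 R132C/+; 16F8, targeted with IDH1 R132C but wild-type at the mRNA level; 8G12 and 17H5, IDH2 R140Q/+; and 47C2 and 45G3, IDH2 R172K/+. Its title concerns IDH mutations and the epithelial-mesenchymal transition. Each of the 2 clones is a single clone, so each test below asks whether 2 clones of 1 genotype differ, and none asks what the mutation does. Nothing in the labels says how far apart the replicate cultures were grown, so p-values measure only the spread between replicate arrays.

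IDH2 is the mitochondrial NADP-dependent isocitrate dehydrogenase, and arginine 140 lies in its active site. The R140Q enzyme converts 2-oxoglutarate to 2-hydroxyglutarate, which inhibits some 2-oxoglutarate-dependent dioxygenases, among them histone and DNA demethylases. Clones grown from single cells of a cancer line can also differ from each other in copy number, chromatin state and stress level, whatever edit they carry.

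Values are MAS5 signals, a linear brightness per probe set and every array had the same trimmed mean. Array medians ran from 12.3 to 15.6, highest in 17H5 replicate 2, so signals of that size or lower may be at background. Differences are log2 of the signal plus 2.2, written as 17H5 minus 8G12 with the standard error, which understates changes of dim genes. They were tested with limma over 18 arrays and adjusted by Benjamini-Hochberg over 12541 genes, with a threshold of 0.05. A gene past it is called. The replicate arrays correlated at 0.9903 within each of the 2 clones, and arrays of 17H5 correlated with arrays of 8G12 at 0.9807 to 0.9858. In these bulk samples fewer expressing cells and less RNA per cell cannot be told apart.

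IDH2 was checked first, since it is the edited gene. Its brightest probe set read 225 and 229 in 17H5 and 242 and 305 in 8G12. The 4 signals all lay above the 14 arrays of the other clones, which ran from 90.4 to 177, and 17H5 lay below 8G12 in both arrays. The difference of -0.26 ± 0.21 did not pass the test (limma adjusted p = 0.539), and a further IDH2 probe set gave -0.07 ± 0.18. The arrays do not read the R140Q base itself. IDH1, the cytosolic enzyme, read 1466.1 and 1463.1 in 17H5 and 1468.3 and 1343.7 in 8G12, a difference of 0.06 ± 0.12. Of 36 tested genes of the isocitrate dehydrogenases and the TCA cycle, limma called 0 in either direction, beside 3.36% of all genes tested. Of the 36, 2 had an unadjusted p under 0.05, beside 2437 of all 12541. The median difference of the 36 was -0.06, beside -0.03 over all genes tested.

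Between the clones 422 of 12541 genes were called (3.36%), 198 higher in 17H5 (1.58%) and 224 lower (1.79%). Of these, 104 differed over 2-fold (0.829%), 55 higher and 49 lower in 17H5, and 11 over 4-fold. The median size of a called difference was 0.68 on the log2 scale. The arrays of one clone did not overlap those of the other in any of the 422 called genes, and they did not overlap in 48.9% of all genes tested. The count depended on single arrays. It fell to 117 without 17H5 replicate 2, to 160 without 8G12 replicate 1, to 190 without 8G12 replicate 2 and to 265 without 17H5 replicate 1, and 85 genes were called in all 4 of these fits, 39 higher and 46 lower in 17H5. A gene below is among those 85 unless a lost call or a missed threshold is given for it.

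**Figure D1:**
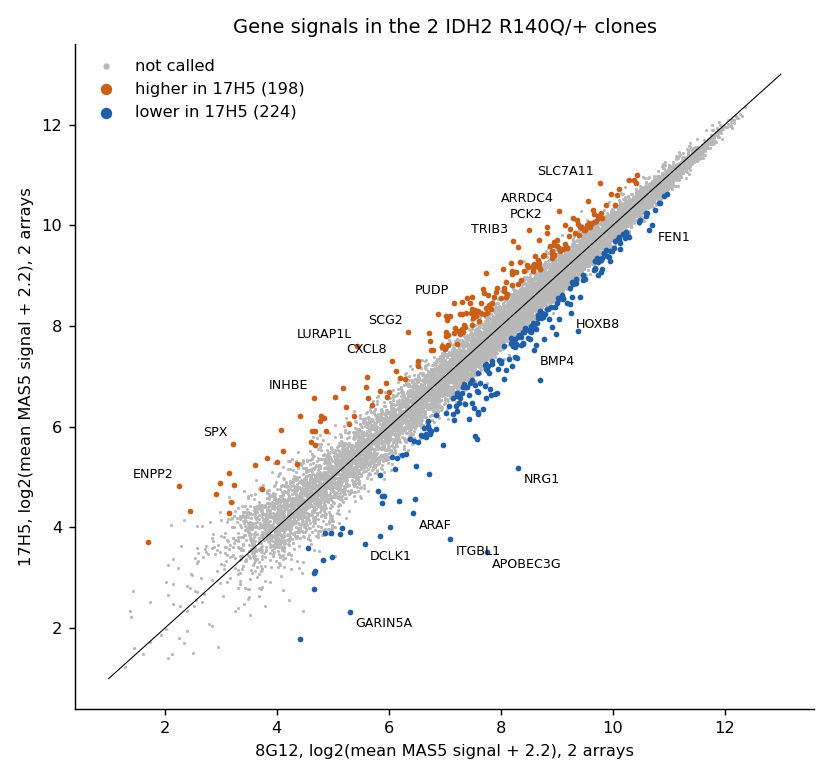
Gene signals in 17H5 (vertical axis) against 8G12 (horizontal axis), each the log2 of the mean MAS5 signal of 2 arrays plus 2.2; 198 genes called higher in 17H5 are orange, 224 called lower are blue, and genes of chromosome Y are not plotted. Most genes lie along the line of equal signal, and APOBEC3G, ITGBL1 and NRG1 lie farthest below it.

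Most other pairs of clones differed in more genes than the 2 R140Q clones. By the number of called genes 17H5 and 8G12 ranked 30th of the 36 pairs, counted from the most to the fewest. The 2 R132H clones, 2H1 and 2C11, differed in 578 genes (4.61%) and the 2 R172K clones, 45G3 and 47C2, in 367 (2.93%). The pair with the fewest was 8G12 and 16F8 with 79 (0.63%), and the pair with the most was 3A4 and parental with 4669 (37.2%).

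17H5 was more often the clone that stood apart. Its 2 arrays lay outside the range of the 14 arrays of the other 7 clones, above in 89 and below in 68 of the 422 called genes, and those of 8G12 lay above in 24 and below in 6. In 3 further genes the clones lay outside on opposite sides, and in 232 (55.0%) neither did. Over all genes tested the counts were 463 and 309 for 17H5 and 197 and 48 for 8G12. Measured as distance from the median of the other clones, 17H5 was the farther in 339 of 422 called genes (80.3%) and in 61.7% of all genes tested. The mean of 17H5 was nearer than that of 8G12 to the parental mean in 277 of the 422 genes (65.6%), beside 54.6% of all genes tested. Against 16F8, the other clone labelled wild-type, 17H5 was the nearer in 54 (12.8%), beside 32.3% of all genes tested. For the remaining 5 clones that share lay between 18.7% and 31.5%, beside 39.0% to 43.9% of all genes tested. These counts use the same 4 arrays as the calls and are given as a description.

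The largest difference was in APOBEC3G, a cytidine deaminase that edits single-stranded DNA and restricts retroviruses. It read 8.6 and 9.8 in 17H5 and 203 and 224 in 8G12. The 2 arrays of 8G12 were the highest of all 18, and the next clone, 2H1, had a mean of 120; 17H5 was under the array medians. The difference was -4.24 ± 0.26 (limma adjusted p = 6.45e-08), 18.9-fold on the offset scale. Its other probe set was dim in both clones.

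ITGBL1, a secreted protein with integrin-like repeats, read 8.9 and 13.9 in 17H5 and 150 and 120 in 8G12. The groups did not overlap, and 8G12 lay above every other array in the series. The difference was -3.35 ± 0.22 (limma adjusted p = 1.83e-07), and 3 further probe sets of ITGBL1 gave -3.09 ± 0.35, -2.50 ± 0.37 and -2.35 ± 0.46. The dimmest, with signals up to 3, gave -1.15 ± 0.31 and did not pass. NRG1, neuregulin, a ligand of the ERBB3 and ERBB4 receptors, read 34.6 and 33.8 in 17H5 and 307 and 325 in 8G12. The difference was -3.13 ± 0.29 (limma adjusted p = 1.13e-05). The parental mean was 31.6, close to 17H5, while 8G12 was above all other arrays, whose highest signal was 217. The 5 other NRG1 probe sets were dim, 3 lower and 2 higher in 17H5.

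ITGB8, the integrin beta subunit that activates latent TGF-beta, read 37 and 66.7 in 17H5 and 167 and 210 in 8G12 (-1.87 ± 0.23, limma adjusted p = 0.000136). The highest array of the other clones was at 131, so 8G12 again lay above all of them. DCLK1, a microtubule-associated kinase used as a marker of tuft cells in the gut, read 10.3 and 10.7 in 17H5 and 38.8 and 51.7 in 8G12 (-1.89 ± 0.20, limma adjusted p = 3.29e-05). Here neither clone was outside the range of the others, which ran from 1.6 to 716.

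ARAF, a RAF kinase of the MAPK cascade, read 24.9 and 9.7 in 17H5 and 85.5 and 83.3 in 8G12 (-2.27 ± 0.27, limma adjusted p = 9.35e-05). In the other clones it lay between 59 and 108, so 17H5 alone was low by this probe set. A dimmer ARAF probe set read 70.7 and 59.5 in 17H5 and 44.6 and 65.8 in 8G12 and did not differ beyond its error (0.25 ± 0.28): the 2 probe sets disagree. JMJD6, a 2-oxoglutarate-dependent lysyl hydroxylase, read 219 and 208 in 17H5 and 461 and 413 in 8G12 (-1.03 ± 0.11, limma adjusted p = 3.31e-05). 17H5 was below all 16 other arrays, and a second bright JMJD6 probe set gave -1.03 ± 0.14.

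TGFBI, an extracellular protein induced by TGF-beta, was dim in both clones. It read 0.4 and 2.1 in 17H5 and 15.2 and 23.2 in 8G12, and the parental mean was 4.4. The difference of -2.65 ± 0.48 (limma adjusted p = 0.00447) was lost without 17H5 replicate 1 (adjusted p = 0.0528) and without 8G12 replicate 2 (adjusted p = 0.0605). Of the other genes with large differences, GARIN5A (-2.99), ZNF550 (-2.00), FRMD3 (-1.97), PRSS33 (-1.90) and SKIDA1 (-1.74) were called lower in 17H5 in every fit that left out an array.

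Among the genes higher in 17H5, ENPP2, which encodes autotaxin and makes lysophosphatidic acid, read 26.4 and 25.9 in 17H5 and 2.6 and 2.5 in 8G12. No other array of the series read above 11.9, under the lowest array median of 12.3. The probe set was thus tested only through 17H5, and its place above the other arrays follows from that filter. The call was lost in a fit with no filter, and a second ENPP2 probe set gave 1.00 ± 0.35 and did not pass. The difference by the first probe set was 2.58 ± 0.37 (limma adjusted p = 0.000477). SPX, the peptide hormone spexin, read 44.5 and 51.8 in 17H5 and 7.8 and 6.5 in 8G12 (2.43 ± 0.26, limma adjusted p = 3.29e-05). The parental cells were far higher, with a mean of 295. LURAP1L read 170 and 213 in 17H5 and 37.4 and 44.7 in 8G12 (2.16 ± 0.22, limma adjusted p = 2.87e-05), with a parental mean of 221.

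ARRDC4, an arrestin-domain protein induced by glucose, read 1182.6 and 1322.2 in 17H5 and 495 and 556 in 8G12 (1.25 ± 0.12, limma adjusted p = 1.13e-05). PCK2, the mitochondrial phosphoenolpyruvate carboxykinase, read 1026.5 and 974 in 17H5 and 491 and 417 in 8G12 (1.14 ± 0.11, limma adjusted p = 2.26e-05). INHBE, an activin subunit, read 85.4 and 101 in 17H5 and 25.9 and 20.6 in 8G12 (1.91 ± 0.23, limma adjusted p = 9.35e-05). ARRDC4 and INHBE in 17H5 were above every other array in the series, and PCK2 was below the parental mean of 1309.5. SCG2, secretogranin, differed by 1.53 and IRAG1 by 1.37 in the same direction.

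Of the 6 called genes in which 8G12 lay below the other clones, PUDP had the widest gap. PUDP, a pseudouridine phosphatase on chromosome X, read 371 and 332 in 17H5 and 129 and 156 in 8G12 (1.29 ± 0.14, limma adjusted p = 3.31e-05). The 14 arrays of the other clones ran from 319 to 513, with 17H5 among them.

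**Figure D2:**
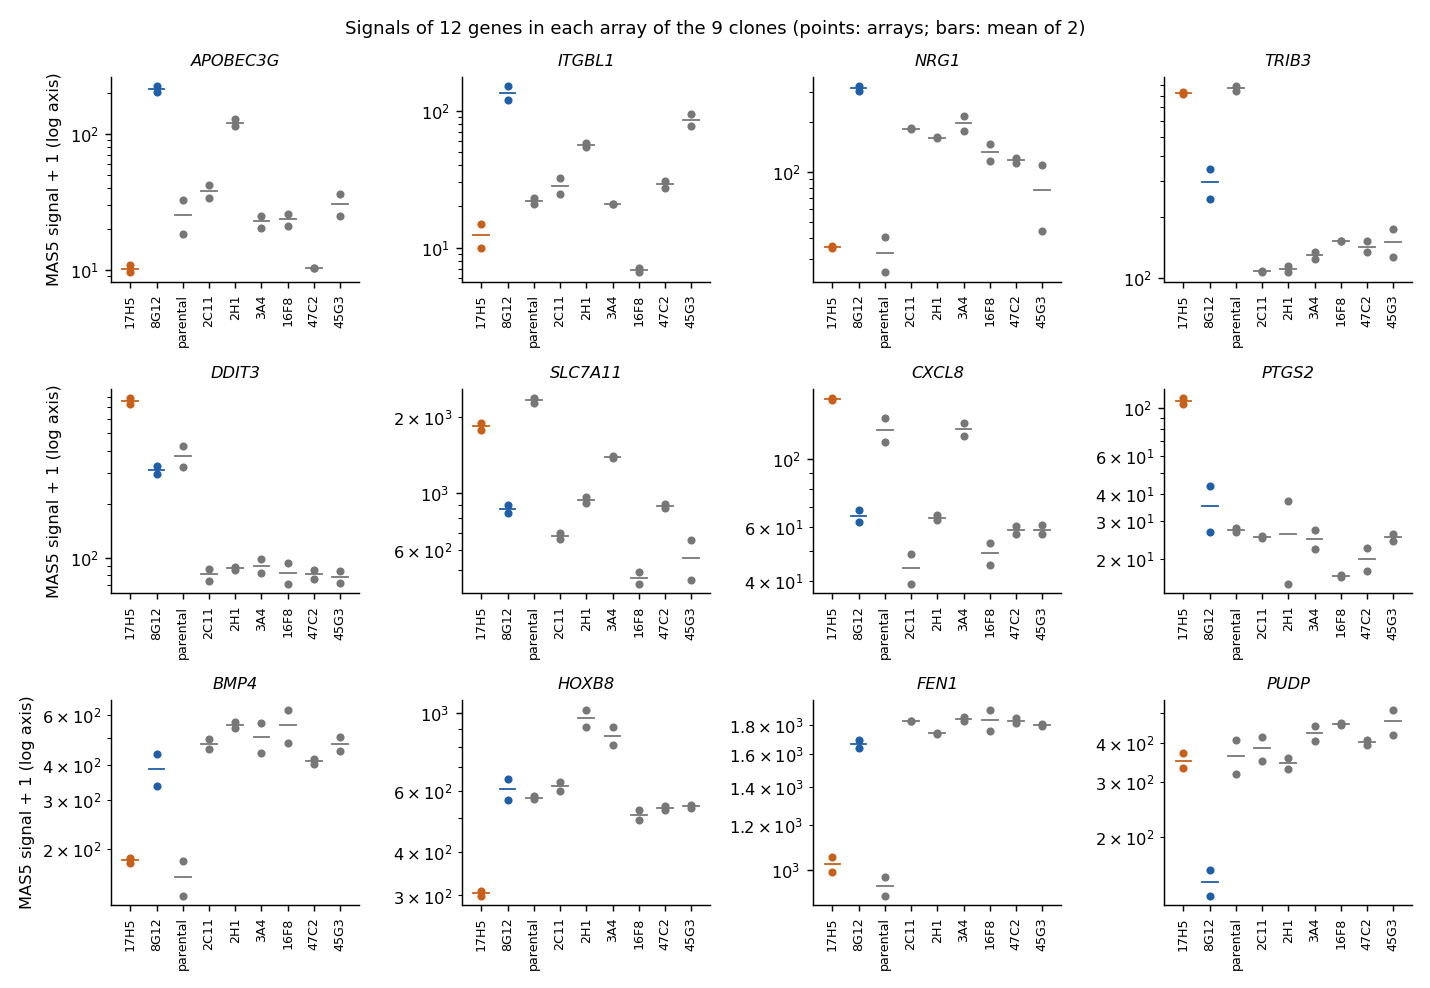
MAS5 signal plus 1 on a log axis for 12 genes in each array of the 9 clones; points are arrays, bars the mean of 2, 17H5 is orange and 8G12 blue. APOBEC3G, ITGBL1 and NRG1 are highest in 8G12, DDIT3, CXCL8 and PTGS2 are highest in 17H5, and FEN1 and BMP4 in 17H5 lie near the parental cells.

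The group with most called members was that of ATF4 targets and the amino acid response. ATF4 is a transcription factor translated when the kinases that sense amino acid shortage, unfolded protein or haem deficiency phosphorylate eIF2; it switches on amino acid transporters, biosynthetic enzymes, aminoacyl-tRNA synthetases and stress regulators. Of 36 tested members, 12 were higher in 17H5 (33.3%, beside 3.36% called among all genes) and 0 lower by limma. At an unadjusted p under 0.05 these counts were 23 and 0, beside 1025 and 1412 of all 12541 genes tested. In all, 33 of 36 differences were positive, beside 5700 of 12541, and the median was 0.43. The mean log2 level of the 36 genes was 9.60 and 9.62 in the 17H5 arrays and 9.21 and 9.06 in the 8G12 arrays, within the 8.53 to 9.66 of the other clones. The count was 5 without 8G12 replicate 2, 6 without 17H5 replicate 2, 8 without 17H5 replicate 1 and 11 without 8G12 replicate 1, and it was 8 in a fit of the 4 arrays alone. TRIB3, SLC7A11, DDIT3 and SLC1A4 were called in all 4 fits that left out an array.

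Of the stress regulators, TRIB3, a pseudokinase that restrains ATF4, read 815 and 831 in 17H5 and 347 and 245 in 8G12 (1.49 ± 0.16, limma adjusted p = 3.31e-05). Parental cells had a mean of 867. DDIT3, the pro-apoptotic factor CHOP, read 790 and 733 in 17H5 and 297 and 328 in 8G12 (1.28 ± 0.17, limma adjusted p = 0.000208). The parental mean was 374 and the other clones lay lower still, so 17H5 had the highest DDIT3 signals of the series. 8G12 also stood above the remaining targeted clones, with a DDIT3 mean of 313 beside 76.9 to 89.2. For TRIB3 the 8G12 mean was 296, beside 106 to 151 in those clones. For SLC7A11, described below, the 8G12 mean of 867 lay within their 464 to 1391.7. SESN2, a leucine sensor that inhibits mTORC1, read 573 and 551 in 17H5 and 311 and 214 in 8G12 (1.12 ± 0.20, limma adjusted p = 0.00357), a call lost without 8G12 replicate 2 (adjusted p = 0.0684).

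ATF3, a partner and target of ATF4, read 987 and 964 in 17H5 and 701 and 496 in 8G12. The difference was 0.72 ± 0.13 (limma adjusted p = 0.00357), lost without 8G12 replicate 2 (adjusted p = 0.0658). CHAC1, which degrades glutathione, read 645 and 597 in 17H5 and 440 and 242 in 8G12, but the spread within 8G12 was wide and its difference of 0.92 ± 0.27 did not pass (limma adjusted p = 0.0689). ATF4 itself read 3165.6 and 2727.2 in 17H5 and 3251.3 and 2975 in 8G12, overlapping groups with a difference of -0.08 ± 0.14. ATF4 is controlled largely at translation, which arrays do not measure.

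Of the transporters, SLC7A11, which brings in cystine in exchange for glutamate, read 1880.5 and 1778.9 in 17H5 and 835 and 899 in 8G12 (1.08 ± 0.13, limma adjusted p = 6.71e-05). SLC1A4, a neutral amino acid carrier, read 340 and 372 in 17H5 and 149 and 165 in 8G12 (1.17 ± 0.16, limma adjusted p = 0.000413). Both clones' arrays were well separated for each carrier. Of the enzymes, ASNS, asparagine synthetase, read 2076.8 and 1995.1 in 17H5 and 1472.4 and 1285.4 in 8G12 (0.56 ± 0.11, limma adjusted p = 0.00836). That call was kept only without 8G12 replicate 1 (adjusted p = 0.0182) and lost without the other arrays (0.0607 to 0.0957). PSAT1 of serine synthesis (0.53), CTH of transsulfuration (0.49) and the tRNA synthetases CARS1 (0.48) and AARS1 (0.38) were also called higher in 17H5, as was the transcription factor CEBPG (0.66). Of these, PSAT1 was lost without 17H5 replicate 2 (adjusted p = 0.0822), CARS1 without either replicate 2 (0.135 and 0.0792) and CEBPG without any array but 8G12 replicate 1 (0.136 to 0.27), and CTH and AARS1 were lost with any 1 array left out (up to 0.262 and 0.173). A second PSAT1 probe set, at 1018.8 and 949 in 17H5 and 439 and 435 in 8G12, gave 1.17 ± 0.12. PHGDH (0.26 ± 0.14) and MTHFD2 (0.30 ± 0.16) did not pass.

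**Figure D3:**
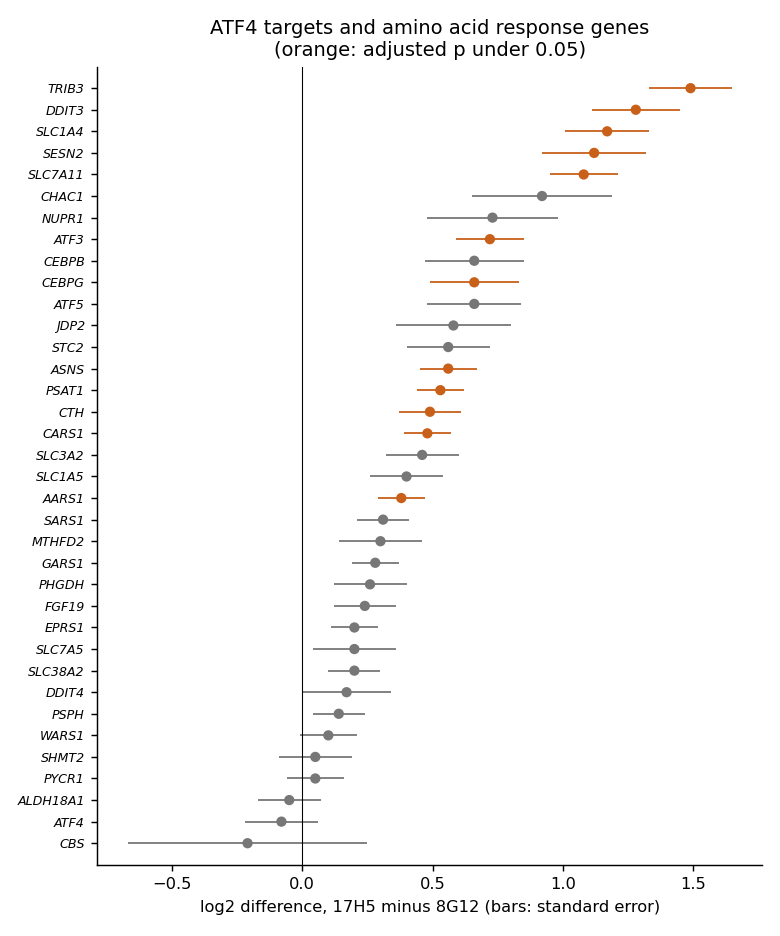
Difference of log2(signal plus 2.2), 17H5 minus 8G12, for the 36 tested ATF4 targets and amino acid response genes; bars are standard errors and orange marks the 12 genes past the adjusted p of 0.05. The points run from -0.21 (CBS) to 1.49 (TRIB3), and 33 of 36 lie to the right of 0.

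ATF4 binds with C/EBP partners at a composite element whose core is written TGATGNAA. It was searched on both strands in the RefSeq promoter windows of GRCh38.p14, 250 bases before to 50 after each start. The core was in 3.62% of 35116 promoters in the table and in 2.08% of the 14949 promoters of tested genes. It was in 8.33% of the 252 promoters of genes called higher in 17H5, in 2.11% of the 285 of genes called lower and in 1.97% of those not called. Leaving out the ATF4 list, the share among genes called higher was 6.44% of 233. Of the 12 called ATF4 list members 11 had a promoter in the table and 6 of them held the core (54.5%), as did 5 of the 19 list members with a promoter that were not called (26.3%). The sequences around the core are shown for the 4 in which it lies wholly before the start, on the strand of the gene, 5′ to 3′, with the core or its reverse complement in capitals.
ASNS: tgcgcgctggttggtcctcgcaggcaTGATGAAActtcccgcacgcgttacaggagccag
CEBPG: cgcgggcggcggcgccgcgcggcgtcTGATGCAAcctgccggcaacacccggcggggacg
ATF3: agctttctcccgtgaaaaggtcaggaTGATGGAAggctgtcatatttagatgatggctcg
AARS1: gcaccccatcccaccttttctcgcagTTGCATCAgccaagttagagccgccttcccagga
In GRCh38.p14 they lie at chr7:97872443-97872502 on the minus strand for ASNS, chr19:33374045-33374104 on the plus strand for CEBPG, chr1:212565190-212565249 on the plus strand for ATF3 and chr16:70289660-70289719 on the minus strand for AARS1. The core began 68, 42, 191 and 187 bases before the annotated start of ASNS, CEBPG, ATF3 and AARS1. In CARS1 and SLC1A4 the core spans the start. A match is a description of letters, and binding was not measured.

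The calls among DNA replication and G1/S genes went 1 way. Of 44 tested members limma called 0 higher and 6 lower (13.6%, beside 3.36% of all genes tested). At an unadjusted p under 0.05 the counts were 0 and 24, beside 1025 and 1412 of all 12541 genes. In all, 37 of 44 differences were negative, beside 6841 of 12541, with a median of -0.26. FEN1, the flap endonuclease of lagging-strand synthesis, read 1053.9 and 990 in 17H5 and 1693.8 and 1638.4 in 8G12 (-0.70 ± 0.08, limma adjusted p = 6.61e-05). The parental mean was 936, near 17H5, and its second probe set gave -0.80 ± 0.10. FEN1 was the member called in all 4 fits that left out an array. CDC25A (-0.71), POLA2 (-0.54), PCNA (-0.40), TK1 (-0.39) and GINS1 (-0.36) were called over all arrays. CDC25A was lost without 8G12 replicate 1 (adjusted p = 0.0555) and the other 4 with any 1 array left out (0.0814 to 0.267). The list's count fell to 1 without 8G12 replicate 1, 2 without 17H5 replicate 2, 2 without 8G12 replicate 2 and 3 without 17H5 replicate 1. Of 39 mitosis genes limma called 0 in either direction, and the median was -0.09. At an unadjusted p under 0.05, 0 were higher and 7 lower, beside 1025 and 1412 of all 12541 genes. MKI67, the proliferation antigen, read 721 and 775 in 17H5 and 642 and 754 in 8G12, which overlap (0.10 ± 0.12).

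CXC chemokines were among the genes higher in 17H5. Of 19 tested NF-kB and chemokine genes 4 were higher and 1 lower (26.3% called, beside 3.36% of all genes tested), and the median was 0.12. CXCL8, interleukin 8, read 155 and 158 in 17H5 and 67.3 and 61.4 in 8G12 (1.25 ± 0.16, limma adjusted p = 0.000201). CXCL2 read 84.7 and 103 in 17H5 and 36.9 and 25 in 8G12 (1.55 ± 0.22, limma adjusted p = 0.000443). CXCL3 read 72.2 and 72.4 in 17H5 and 28.7 and 22.5 in 8G12 (1.43 ± 0.21, limma adjusted p = 0.000504). All of these neutrophil-attracting chemokines were above every other array of the series in 17H5. CXCL1, of the same cluster, read 69.9 and 70.2 in 17H5 and 46.3 and 39.2 in 8G12 and did not pass (limma adjusted p = 0.0704). CXCL2 and CXCL3 are close paralogs, and their probe sets may share signal.

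PTGS2, the inducible cyclooxygenase, read 103 and 110 in 17H5 and 25.6 and 42.7 in 8G12 (1.62 ± 0.31, limma adjusted p = 0.00623), and no array of the other 7 clones exceeded 36. That call was lost without 17H5 replicate 2 (adjusted p = 0.0822) and without 8G12 replicate 1 (adjusted p = 0.105). TNFAIP2 was the member lower in 17H5 (-0.39), a call kept only without 17H5 replicate 1 (adjusted p = 0.0411) and otherwise lost (0.0683 to 0.373). NFKBIA, the feedback inhibitor of NF-kB, read 234 and 216 in 17H5 and 223 and 199 in 8G12 (0.09 ± 0.16). Of 26 ERBB and MAPK output genes 2 were called higher (7.69%, beside 3.36% of all genes tested), with a median of 0.25. HBEGF, an EGF receptor ligand, read 270 and 314 in 17H5 and 128 and 128 in 8G12 (1.17 ± 0.16, limma adjusted p = 0.000413), and a second bright probe set gave 1.11 ± 0.17. The other was SPRED1 (0.49), called without 17H5 replicate 1 (adjusted p = 0.0183) and lost without the other arrays (0.06 to 0.215), whose difference was -0.25 with the probe set of highest variance.

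Of 26 tested homeobox genes limma called 0 higher and 5 lower (19.2%, beside 3.36% of all genes tested), with a median of -0.27. At an unadjusted p under 0.05, 0 were higher and 9 lower, beside 1025 and 1412 of all 12541 genes. Of the HOXB cluster, whose genes set position along the body axis and mark the hindgut, HOXB8 read 299 and 309 in 17H5 and 649 and 564 in 8G12 (-0.99 ± 0.10, limma adjusted p = 2.87e-05). HOXB4 read 109 and 110 in 17H5 and 208 and 208 in 8G12 (-0.91 ± 0.12, limma adjusted p = 0.000221). HOXB6 read 75.2 and 79.4 in 17H5 and 140 and 155 in 8G12 (-0.91 ± 0.15, limma adjusted p = 0.00188). For these 3 genes 17H5 was below every other array of the series. HOXB7 (-0.09 ± 0.12) and HOXB9 (0.24 ± 0.16) of the same cluster did not pass, and HOXB5 (-0.52) was called but lost without either 17H5 replicate (adjusted p = 0.07 and 0.0841) and without 8G12 replicate 1 (0.121). MEIS2, a cofactor of HOX proteins, read 210 and 246 in 17H5 and 531 and 475 in 8G12 (-1.14 ± 0.13, limma adjusted p = 5.03e-05), and here it was 8G12 that lay above all other arrays. GATA2, a zinc finger transcription factor, read 81 and 89.9 in 17H5 and 178 and 146 in 8G12 (-0.90 ± 0.12, limma adjusted p = 0.000368).

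Among 22 tested Wnt targets and colon stem cell genes limma called 0 higher and 4 lower, with a median of -0.12. These calls were 18.2% of the list, beside 3.36% of all genes tested. At an unadjusted p under 0.05, 2 were higher and 8 lower, beside 1025 and 1412 of all 12541 genes. BMP4, a secreted morphogen of the gut, read 185 and 178 in 17H5 and 436 and 334 in 8G12 (-1.06 ± 0.16, limma adjusted p = 0.00103), with a parental mean of 159. AXIN2, a feedback inhibitor of Wnt signalling, read 224 and 169 in 17H5 and 346 and 446 in 8G12 (-1.01 ± 0.18, limma adjusted p = 0.00422). Its call was lost without 17H5 replicate 2 (adjusted p = 0.106) and without 8G12 replicate 2 (adjusted p = 0.0692). MSX1 (-0.59) and RNF43 (-0.54) were each lost without 17H5 replicate 2 (adjusted p = 0.0999 and 0.09) and without 1 replicate of 8G12, MSX1 without replicate 1 (0.0516) and RNF43 without replicate 2 (0.0792). KLF4, a factor of differentiated colon cells, was the member of its list of 12 that was called (8.33%, beside 3.36% of all genes tested). It read 511 and 535 in 17H5 and 316 and 267 in 8G12 (0.84 ± 0.12, limma adjusted p = 0.000443).

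Markers of the epithelial-mesenchymal axis were compared as single genes and as lists. ZEB1, the repressor of epithelial genes named in the title of the study, read 118 and 116 in 17H5 and 141 and 176 in 8G12. The groups did not overlap, but the difference of -0.42 ± 0.15 did not pass (limma adjusted p = 0.123). CDH1, E-cadherin, read 1254.8 and 1363.9 in 17H5 and 1031.8 and 1040.2 in 8G12 (0.34 ± 0.14, limma adjusted p = 0.183). VIM, vimentin, read 98.5 and 79.8 in 17H5 and 111 and 152 in 8G12 (-0.54 ± 0.16, limma adjusted p = 0.0725). EPCAM, the epithelial adhesion molecule, read 2017.2 and 2212.1 in 17H5 and 2095.3 and 2046.2 in 8G12 (0.03 ± 0.11). Of 37 epithelial markers 0 were called higher and 1 lower, KRT23 (2.70%, median 0.09). At an unadjusted p under 0.05, 4 were higher and 2 lower, beside 1025 and 1412 of all 12541 genes. Of 24 mesenchymal markers 1 was called in each direction, NT5E higher and TGFBI lower (8.33%, median -0.03), beside 3.36% of all genes tested. By the unadjusted limma p under 0.05, 1 of the 24 was higher and 4 were lower, beside the same 1025 and 1412. Of 6 tested EMT transcription factors limma called 0, and by the unadjusted p 1 was higher and 1 lower. KRT23 was lost without 17H5 replicate 2 and without either 8G12 replicate (adjusted p 0.0821 to 0.2), and NT5E with any 1 array left out (0.0952 to 0.11).

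The family of 2-oxoglutarate-dependent dioxygenases, some of which 2-hydroxyglutarate is known to inhibit, was taken as a list with 40 tested genes. Of them 2 were called higher and 2 lower in 17H5 (10%, beside 3.36% of all genes tested), with a median of 0.05. KDM7A, a histone demethylase, read 356 and 400 in 17H5 and 177 and 180 in 8G12 (1.07 ± 0.16, limma adjusted p = 0.000765), opposite in direction to JMJD6 above. JMJD1C (0.70) and RIOX1 (-0.50) were called over all arrays and lost without 8G12 replicate 1 (adjusted p = 0.139 and 0.166). JMJD1C was lost without 17H5 replicate 1 (0.0689) too, and RIOX1 without 17H5 replicate 2 (0.234). Of 28 DNA methylation and Polycomb genes DNMT1 was higher (0.51) and EED lower (-0.48), and both calls were lost with any 1 of the 4 arrays left out (adjusted p 0.0713 to 0.313 for DNMT1 and 0.0547 to 0.091 for EED). DNMT1 was at 302 and 340 in 17H5 and 221 and 228 in 8G12. The 2 calls were 7.14% of that list, beside 3.36% of all genes tested.

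**Figure D4:**
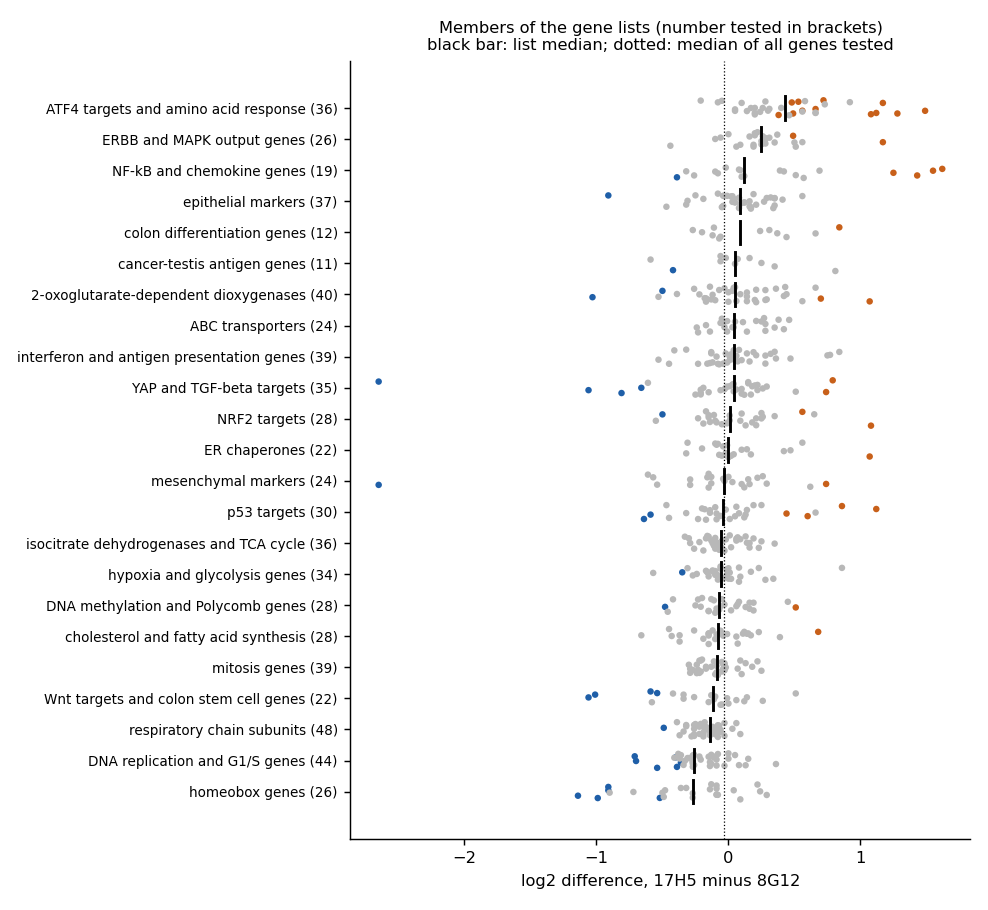
Difference of log2(signal plus 2.2), 17H5 minus 8G12, for each tested member of 23 gene lists; orange members were called higher and blue ones lower, the black bar is the list's median and the dotted line the median of all genes tested (-0.03). The ATF4 list has the highest median (0.43), and the homeobox (-0.27) and DNA replication (-0.26) lists the lowest.

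Of the remaining lists, the interferon and antigen presentation genes (39 tested) and the ABC transporters (24 tested) had 0 calls by limma. They had 8 and 1 members at an unadjusted p under 0.05, beside 2437 of all 12541 genes tested. Respiratory chain subunits had 1 lower call, NDUFB10 (-0.49, lost without either 17H5 replicate and without 8G12 replicate 2, adjusted p 0.165 to 0.3), among 48 (2.08%), yet 45 of the 48 differences were negative with a median of -0.14. Over all genes tested 3.36% were called and 6841 of 12541 differences were negative. The mean log2 level of the 48 was 10.23 and 10.09 in 17H5 and 10.34 and 10.30 in 8G12, beside 10.18 to 10.39 in the other clones. Without 17H5 replicate 2 the median was -0.06 and 38 of the 48 were negative. With the probe sets of highest variance 36 of the 48 were negative. Of 30 p53 targets 4 were higher, among them GDF15 (0.86) and SESN2, and 2 lower (20% called, median -0.04). The list's calls fell to 1 without either replicate 2 and to 3 without either replicate 1, and 0 of the 6 were kept in all 4 fits that left out an array. GDF15 was lost without either 17H5 replicate and without 8G12 replicate 2 (adjusted p 0.0527 to 0.0844). Further GDF15 probe sets gave 1.00 ± 0.21 and 1.05 ± 0.16. The list of 28 NRF2 targets also holds NFE2L2, which encodes NRF2, and KEAP1, which degrades it. SLC7A11, counted in the ATF4 list too, and NFE2L2 (0.56) were higher and KEAP1 (-0.50) lower (10.7%, beside 3.36% of all genes tested, median 0.01). NFE2L2 was lost without 17H5 replicate 1 (adjusted p = 0.0517) and without 8G12 replicate 1 (0.0601), and KEAP1 with any 1 array left out (0.0517 to 0.359). Of 22 ER chaperone and unfolded protein genes ERN1, the IRE1 sensor, was called higher (1.07 ± 0.14; a dimmer probe set gave 0.26 ± 0.24), while HSPA5, the chief ER chaperone, read 2848.2 and 2631.2 in 17H5 and 2766.3 and 2656.5 in 8G12 (0.01 ± 0.11). That call was 4.55% of the list. The YAP and TGF-beta list had 2 higher and 4 lower calls among 35 (17.1%, beside 3.36% of all genes tested), with a median of 0.04. Of these calls BMP4 alone was kept in every fit that left out an array.

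Called genes lay on every chromosome from 1 to 22 and on X. By chromosome, between 1.9% (chromosome 13) and 5.59% (chromosome 4) of tested genes were called, and the median difference lay between -0.09 (chromosome 22) and 0.04 (chromosome 4). In windows of 25 neighbouring tested genes the median ran from -0.28 on chromosome 1 to 0.31 on chromosome 5, a spread that was not tested. There were 22 runs of 2 or more neighbouring tested genes called in 1 direction. Only 2 of them held 3 genes, both lower in 17H5. NEBL, MIR1915HG and SKIDA1 lie on chromosome 10 between 20779973 and 21525682 in GRCh38.p14, and SKIDA1 read 46.2 and 62.1 in 17H5 and 180 and 188 in 8G12 (-1.74 ± 0.16, limma adjusted p = 1.13e-05). LINC02987, POP4 and PLEKHF1 lie on chromosome 19 between 27793431 and 29675477, with differences of -0.54, -0.46 and -0.98. Of the 6 genes SKIDA1 alone was called in all 4 fits that left out an array, and POP4 turned to 0.18 with the probe set of highest variance.

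Other cells and controls were checked on the same arrays. COL3A1, DCN and LUM of fibroblasts, PTPRC and CD3E of blood cells and CDH5 and TEK of endothelium read under 5 in all 4 arrays. Other members read higher: LYZ 12.9 to 23.7, HBB 10.8 to 24.5 and LCP1 9.2 to 24.4 of blood cells, and ESAM of endothelium 26 to 36.7. PDGFRB of fibroblasts read 10.9 and 17.2 in 17H5 and 8.4 and 9.6 in 8G12, and ITGAM of myeloid cells 8 and 13 in 17H5 and 7.6 and 6.7 in 8G12. PDGFRB in 17H5 and ITGAM in both clones lay above the 14 arrays of the other clones, whose highest signals were 10.4 and 6.3. The part of such cells in the differences was not tested. The higher 17H5 signal of PDGFRB, ITGAM, HBB and LCP1 was in replicate 2. That array had the highest median of the series, 15.6, beside 13.8 for the next. The summed signal of 12 fibroblast markers was 746.9 and 751.1 in 17H5 and 988.5 and 879.8 in 8G12 (other clones 625.6 to 998.1), carried by FBLN1 and COL1A1. That of 13 haematopoietic markers was 64.8 and 117.1 in 17H5 and 76.7 and 67.7 in 8G12, and that of 10 endothelial markers 43.3 and 69.6 in 17H5 and 58.8 and 59.8 in 8G12. The spiked poly-A controls, RNAs added before labelling, had a geometric mean signal of 91.2 and 73.3 in 17H5 and 93.2 and 135.1 in 8G12, within the 53.4 to 153.7 of all arrays. 8G12 replicate 2 was thus the highest of the 4. With these controls as a covariate 589 genes were called, 352 of the 422 main calls among them.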

How the data were processed

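Total RNA of 18 cultures was amplified, labelled with biotin and hybridised to one-colour Affymetrix arrays of 54675 probe sets. The authors deposited probe set intensity values made with MAS5, per the submitters' processing notes with no version named. Signals lay between 0 and 8500.9 (median 13.1). Probe sets were named from the platform annotation: 41091 carried 1 gene symbol, 1801 several and 11721 none, and 62 were controls. Probe sets were kept where both arrays of at least 1 clone reached the array median. Each gene then took the brightest of its kept probe sets on average, which left 12541 of 19775 genes to test. log2(signal + 2.2), the offset being the 25th percentile, was fitted with limma 3.58.1 (lmFit, clone contrasts, eBayes with trend, two-sided) in R 4.3.3 on all 18 arrays, with 9 residual degrees of freedom. Simulated data of that fit had 200 of 12541 genes changed. Of log2 changes of 0.5, 35.8% were recovered, of 1 80.6% and of 2 100%, with 6 false calls. The simulated noise was drawn independently for each gene and array, so errors shared between genes are not in these rates. Promoters came from RefSeq (GRCh38.p14); figures were drawn with Python 3.11.15.

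The comparison, gene lists and tests were chosen with earlier results of these data known. Named genes are the EMT genes and IDH1 and IDH2, the highest, lowest and smallest p of called genes, those farthest outside the other clones, up to 5 members of a list by smallest p, and members of runs. ATF4, CHAC1, PHGDH, MTHFD2, MKI67, CXCL1, NFKBIA, HOXB7, HOXB9 and HSPA5, and members named from the lists of called genes or of markers, were added after their values were seen. Genes of chromosome Y are in the counts and not named. Replicate numbers did not pair the samples: the deviations of replicate 1 from the clone means correlated at 0.0576 between the clones, within -0.353 to 0.383 over 36 pairs of clones.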

Additional observations from a re-analysis of the deposited data

How the results depend on the processing

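Main settings gave 422 called genes, 104 of them over 2-fold. The first count was 201 with the 4 arrays alone (2 residual degrees of freedom) and 117 to 265 with 1 array left out. The second was 65 with an offset of 16, 19 with an offset of 50, and 66 to 112 with 1 array left out. Under the other offsets, filters, normalization, probe set choice and variance model, and with the poly-A covariate, the first count lay between 288 and 606. Of the 422 main calls, 184 were kept with the 4 arrays alone, 243 with the probe set of highest variance and 352 with the poly-A covariate. The replicate number as a block (replicate block) gave 421 called genes and 104 over 2-fold, with 384 of the main calls shared, and the numbers do not pair the samples. Main calls that were called again kept their direction in every setting. With the probe set of highest variance CEBPD turned to -0.13, SPRED1 to -0.25, AJUBA to -0.15 and POP4 to 0.18. None passed the threshold, and in each another probe set was used. In the 4 arrays it read 12.8 to 18.6 for CEBPD and 8.5 to 19.8 for AJUBA, which may be near background. Brighter further AJUBA probe sets gave 0.94 ± 0.13 and 0.62 ± 0.17, the latter short of the threshold. The IDH2 difference ran from -0.42 to -0.10 with 1 array left out. List counts under these settings were added after seeing the data. Arrays give no counts; 2 arrays a clone and signals near the array median limit what can be seen.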

Other observations

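The cytidine deaminases of the APOBEC3 cluster on chromosome 22 were looked at together after the value of APOBEC3G was seen. APOBEC3B read 112 and 131 in 17H5 and 247 and 282 in 8G12 (-1.11 ± 0.16, limma adjusted p = 0.000413). APOBEC3C read 247 and 253 in 17H5 and 479 and 476 in 8G12 (-0.93 ± 0.11, limma adjusted p = 0.000122). Both were called with each array left out in turn. APOBEC3F was dim, at 12.1 and 20.9 in 17H5 and 21 and 37.7 in 8G12, and did not pass (-0.74 ± 0.32). These genes are close paralogs, and whether their probe sets share signal was not tested.

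Further genes called in every fit that left out an array were picked after their values were seen. CXCR4, the receptor of the chemokine CXCL12, read 83.8 and 68.1 in 17H5 and 188 and 197 in 8G12 (-1.32 ± 0.21, limma adjusted p = 0.00124), with 17H5 below all other arrays. CD24, a surface glycoprotein of epithelial cells, read 556 and 565 in 17H5 and 880 and 899 in 8G12 (-0.66 ± 0.12, limma adjusted p = 0.00388), with 8G12 above all others. JUNB, a component of AP-1, read 948 and 973 in 17H5 and 334 and 389 in 8G12 (1.41 ± 0.20, limma adjusted p = 0.000454), the highest in the series. MECOM, a zinc finger transcription factor, read 570 and 484 in 17H5 and 198 and 223 in 8G12 (1.31 ± 0.14, limma adjusted p = 3.31e-05), within the range of the other clones.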
